A study of Rattus norvegicus with 28 samples.

Results

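This comparison sets NRK-49F cells, an established fibroblast line from rat kidney, with the homeobox gene Hoxc8 knocked down against the same cells under methionine restriction, with both groups kept 48 h in transforming growth factor β1 (TGF-β). The members are the 11780 genes of 30178 in the deposited table that reached 1 FPKM (fragments counted on a gene, divided by its length and by library depth) in at least 2 of the 4 libraries compared. The siHoxc8 group is 2 libraries of cells given TGF-β and a small interfering RNA against Hoxc8. The MetR group is 2 libraries of cells given TGF-β in a dialyzed-serum medium holding 30 uM methionine, where the matching control medium holds 200 uM. A further 2 groups of 2 libraries, untreated control cells and cells given TGF-β alone, serve as points of reference and share in the estimate of spread. All cells were starved of serum for 24 h first, and the labels give the TGF-β dose as 5 ng per uL. The labels of the RNA-seq groups name no control siRNA and no control medium, so the siRNA or the restricted methionine cannot be told apart from the transfection or the change of medium. Nor is it stated that replicate libraries are independent cultures, and the p-values then cover no more than the spread of these libraries, which may be technical.

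TGF-β binds its receptors, which activate Smad proteins that carry the signal to the nucleus, and it turns fibroblasts into contractile, matrix-producing myofibroblasts. Methionine is the source of S-adenosylmethionine, the methyl donor of histone, RNA and DNA methylation, and cells sense its lack through the ATF4 branch of the amino acid response. Hox factors bind DNA and keep the positional identity of fibroblasts. Since both treatments were applied on top of TGF-β, the difference between the groups asks where the cells end in different states.

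The 8 libraries held 15118113 to 20146870 reads, recovered from the steps of the FPKM values. Replicate libraries had a log2 SD of 0.186 with siHoxc8 and 0.307 with MetR, and 372 tested genes differed at least 2-fold between the MetR libraries. Of 8 fibroblast markers measured, 6 reached 1 FPKM, led by Col1a1 and Vim, while Thy1 was listed at 0 in all 4 libraries and Dcn stood below 1 FPKM. Among markers of other cells, Krt8, a keratin of simple epithelia, stood at 230.3 and 252 FPKM with MetR and 685 and 646 with siHoxc8 (1.46, adjusted p = 5.62e-05 by limma). Its partner Krt18 and the epithelial marker Epcam were listed at 0 in all 4. Recovered reads were 0 for Thy1 and 0 or 1 for Krt18 in each of the 8 libraries. Such zeros may be gaps in the counting, so they do not settle which cells were present. The endothelial markers stayed below 1 FPKM even when summed. Each single marker of pericytes and smooth muscle, mesangium and neural cells lay below 1 FPKM in the 4 libraries. Of the leukocyte markers only Cd68 reached 1 FPKM, with 1.64 in MetR replicate 1. It did not pass the test (-0.44, adjusted p = 0.209 by limma), and the other leukocyte markers were too low to be tested.

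Of the 11780 members, 6601 differed between the groups (limma with Benjamini-Hochberg adjustment, adjusted p under 0.05), against a background of 54.2% of the 12315 genes tested. Higher levels with siHoxc8 were found for 3032 members (background 24.9%) and higher levels with MetR for 3569 (background 29.3%). At least 2-fold differences were found for 1145 and 1147 members in these directions (background 9.31% and 9.35%), and at least 8-fold differences for 57 and 23 (background 0.463% and 0.187%). The libraries of the groups did not overlap for 9197 members (background 77%). The median difference, siHoxc8 minus MetR, was -0.06 on the log2(FPKM + 1) scale for the members and -0.06 for all genes tested. Differences below are given on that scale with their standard error, positive where siHoxc8 is higher, and they understate the change of genes with low FPKM. Counts for the lists below are to be read beside the background shares of 24.9% with siHoxc8 and 29.3% with MetR. For 7004 members the 95% interval of the difference lay within 2-fold, and 4575 of these had not passed the test. Another 604 members neither passed the test nor had an interval that keeps within 2-fold. A total of 341 members reached 1 FPKM in both MetR libraries and no siHoxc8 library, and 382 the reverse, so these could enter only by differing. At the edge of the selection, AC110690.1 just entered with 1 and 2.5 FPKM in the siHoxc8 libraries and 0 in both MetR libraries, and Crip1 just missed it with 0.999 and 1.19 FPKM with siHoxc8 and 0.428 and 0 with MetR.

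**Figure D1:**
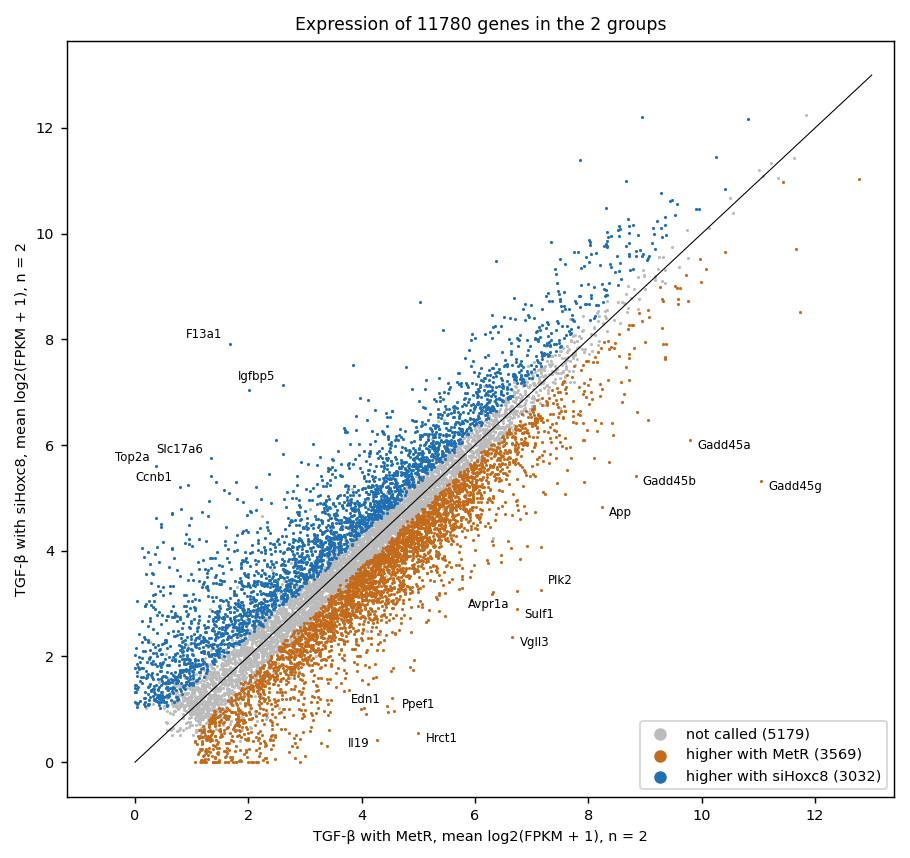
Mean log2(FPKM + 1) of the 11780 members with TGF-β and MetR (x axis) and with TGF-β and siHoxc8 (y axis), n = 2 libraries each, colored by the call, with equal levels on the black line. Genes higher with siHoxc8 (3032, blue) and with MetR (3569, orange) lie on both sides along the whole range of expression, and F13a1 and Gadd45g stand farthest out among the labelled genes.

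Hoxc8, the target of the siRNA, was low in both groups. It stood at 0.417 and 0.614 FPKM with MetR (18 and 23 reads) and 0.463 and 0.0771 with siHoxc8 (15 and 3 reads), while TGF-β alone gave 4.32 and 5.01 FPKM and control cells 1.12 and 1.34. The groups overlapped, and the difference between them did not pass the test (-0.27 ± 0.19, adjusted p = 0.27, 95% interval -0.72 to 0.18). At such low FPKM this scale understates the change, so the interval does not bound it. The difference was -0.94 with a pseudocount of 0.1 (adjusted p = 0.168 by limma). With limma-voom on recovered reads it was -1.38 (adjusted p = 0.117), and neither passed. Under all settings the difference ran from -1.38 to -0.05. Hoxc8 RNA was below 1 FPKM in each of the 4 libraries, and whether its level bears on the other differences between the groups was not tested. Hoxc8 lies in a gene cluster with overlapping transcripts, and how reads were assigned to strands is not given in the sources used here.

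Genes of DNA replication and mitosis were higher with siHoxc8 than with MetR. Of 38 members of a cell cycle list, 35 were higher with siHoxc8, 0 were higher with MetR and 3 (Ccne2, Mcm7 and Tyms) did not pass, with a median difference of 2.38 against -0.06 for all genes tested. Part of this count rests on the selection. Genes such as Top2a, Ccnb1 and Ccna2 were below 1 FPKM in both MetR libraries and became members only through the siHoxc8 libraries. Others, such as Mki67, reached 1 FPKM in both groups. Top2a, the topoisomerase that untangles DNA in dividing cells, stood at 0.346 and 0.256 FPKM with MetR and 47.6 and 47.5 with siHoxc8. These levels lie on either side of the 6.18 and 7.83 FPKM of TGF-β alone, and the siHoxc8 libraries exceeded the 32.9 and 31.8 FPKM of untreated control cells as well (difference between siHoxc8 and MetR 5.22 ± 0.13, adjusted p = 1.67e-06). Ccnb1, the cyclin of entry into mitosis, stood at 0.741 and 0.712 FPKM with MetR and 37.8 and 34.5 with siHoxc8 (4.42 ± 0.19, adjusted p = 1.16e-05). Both MetR libraries lay below 1 FPKM and both siHoxc8 libraries above the control libraries, which held 14 and 16 FPKM. Mki67, which encodes the proliferation marker Ki-67, stood at 1.51 and 1.26 FPKM with MetR and 17.8 and 16.6 with siHoxc8 (2.93 ± 0.12, adjusted p = 8.78e-06), with 2.9 and 2.75 FPKM under TGF-β alone. The differences of the same kind were 4.05 ± 0.12 for Ccna2, a cyclin of S phase and mitosis, 3.55 ± 0.16 for the mitotic kinase Plk1, 3.87 ± 0.20 for Birc5 (survivin) and 3.43 ± 0.16 for Mcm5, a subunit of the replicative helicase. Relative to TGF-β alone, the list's median was -0.70 with MetR and 1.79 with siHoxc8, where both values share the same 2 TGF-β libraries. In bulk libraries fewer cycling cells and less of these RNAs per cell cannot be told apart.

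Cell cycle promoters often hold CCAAT boxes, bound by NF-Y, and CHR elements, bound by the DREAM and MuvB complexes. They were searched on both strands in the 250 bases before the start site, with the letters CCAAT and TTTGAA, in RefSeq promoters of build GRCr8 (the first listed of each gene), which cover 8476 of the members. CCAAT was present in 21 of 29 cell cycle promoters (72.4%), in 36.6% of all members and in 34.3% of 27457 promoters of the same length. TTTGAA was present in 9 of 29 (31%), in 10% of all members and in 16% of all promoters. The form TTCGAA was present in 4 of 29 (13.8%), in 2.03% of all members and in 1.5% of all promoters. Neither CCAAT nor TTTGAA was particular to this list. Over the 27 lists CCAAT ran from 16.7% (growth factors) to 100% (endoplasmic reticulum chaperones). It was at 77.3% for sterol and fatty acid synthesis and 72.7% for cytosolic aminoacyl-tRNA synthetases. TTTGAA was present in 3 of 8 Hox promoters (37.5%). The form TTCGAA was present in 2 of 17 promoters of the collagen modification list (11.8%). A match is a description of the letters and not evidence of binding. The promoters of 3 of the genes with the largest differences are shown 5′ to 3′, with matches to CCAAT or TTTGAA (either strand) in capitals. Top2a (chr10:84473094-84473343, minus strand) holds CCAAT matches at -239, -201, -161 and -57 and a TTTGAA match at -22 from the start, Tacc3 (chr14:81289699-81289948, minus strand) CCAAT matches at -115 and -70 and a TTTGAA match at -42, and Ccnb1 (chr2:33655226-33655475, minus strand) CCAAT matches at -82 and -50 alone.
Top2a: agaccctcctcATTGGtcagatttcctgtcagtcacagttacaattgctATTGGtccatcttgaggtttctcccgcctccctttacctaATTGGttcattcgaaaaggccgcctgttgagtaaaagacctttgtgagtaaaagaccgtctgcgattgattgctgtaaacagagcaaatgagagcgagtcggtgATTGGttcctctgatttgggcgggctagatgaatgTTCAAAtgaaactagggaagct
Tacc3: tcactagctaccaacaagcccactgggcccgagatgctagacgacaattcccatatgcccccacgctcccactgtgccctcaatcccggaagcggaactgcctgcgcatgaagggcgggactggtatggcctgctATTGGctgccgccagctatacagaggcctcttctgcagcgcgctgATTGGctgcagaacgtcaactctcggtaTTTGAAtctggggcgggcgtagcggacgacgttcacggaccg
Ccnb1: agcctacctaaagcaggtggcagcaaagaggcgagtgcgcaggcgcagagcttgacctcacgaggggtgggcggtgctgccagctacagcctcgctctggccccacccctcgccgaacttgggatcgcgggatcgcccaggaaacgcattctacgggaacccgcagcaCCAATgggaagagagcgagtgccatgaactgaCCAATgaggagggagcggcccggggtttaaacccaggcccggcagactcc

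Growth arrest genes showed the opposite direction. Of 16 members of a list of p53 targets and inhibitors of cyclin-dependent kinases (CDK), 12 were higher with MetR, 3 were higher with siHoxc8 and 1 did not pass, with a median of -1.49. All 3 Gadd45 genes, whose products act in growth arrest and DNA damage signaling, were among the 12 largest differences towards MetR. Gadd45g stood at 2099.9 and 2142 FPKM with MetR and 39 and 38.6 with siHoxc8 (-5.74 ± 0.12, adjusted p = 1.13e-06). The MetR libraries were far above the 322 and 407 FPKM of TGF-β alone, and the siHoxc8 libraries lay below it and above the 23.3 and 21.1 FPKM of control cells. Gadd45a stood at 637 and 1235 FPKM with MetR and 63 and 72.6 with siHoxc8 (-3.69 ± 0.27). Gadd45b stood at 488 and 425 FPKM with MetR and 40.5 and 43.1 with siHoxc8 (-3.42 ± 0.11). Plk2, a kinase that p53 induces, followed with 156 and 129 FPKM with MetR and 9.14 and 8.13 with siHoxc8 (-3.90 ± 0.13, adjusted p = 4.96e-06). Cdkn1a, the CDK inhibitor p21, stood at 315 and 281 FPKM with MetR and 82.1 and 87 with siHoxc8 (-1.80 ± 0.10, adjusted p = 1.91e-05), with 253 and 279 FPKM under TGF-β alone, so that it was just above the TGF-β level with MetR and below it with siHoxc8. Mdm2, the ubiquitin ligase that degrades p53, was also higher with MetR (-1.66 ± 0.13). The CDK inhibitor Cdkn1b (p27) went the other way with 1.01 ± 0.12, as did Rrm2b, a subunit of ribonucleotide reductase, with 1.34 ± 0.14.

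Among the 12 largest differences in each direction that held with either MetR library left out, 3 of those higher with siHoxc8, Top2a, Ccnb1 and Ccna2, belong to the cell cycle list. Outside that list stand Tacc3 (4.32 ± 0.14) and Troap (4.03 ± 0.12), which encode spindle proteins, Spc24 (4.05 ± 0.22) of the kinetochore, Cdca3 (4.08 ± 0.18), the histone chaperone gene Asf1b (4.24 ± 0.20) and Ube2t (3.99 ± 0.15), a ubiquitin-conjugating enzyme of DNA crosslink repair. F13a1, the catalytic subunit of the clotting factor that crosslinks fibrin, stood at 1.96 and 2.44 FPKM with MetR and 236 and 246 with siHoxc8 (6.25 ± 0.12, adjusted p = 1.13e-06), while it was at 0.0321 and 0.0317 FPKM under TGF-β alone and at 0.0145 and 0 in control. No library outside the siHoxc8 group exceeded 2.44 FPKM. Igfbp5, a binding protein of insulin-like growth factors, stood at 9.63 and 2.48 FPKM with MetR and 141 and 138 with siHoxc8 (4.53 ± 0.43, adjusted p = 0.000155). Slc17a6, a vesicular glutamate transporter, stood at 2.97 and 0.607 FPKM with MetR and 53.9 and 51.9 with siHoxc8 (4.41 ± 0.36, adjusted p = 8.38e-05). The MetR libraries of both genes differed widely but lay below both siHoxc8 libraries. The differences were 5.34 and 5.07 without MetR replicate 1 and 3.73 and 3.76 without MetR replicate 2.

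Towards MetR, the largest differences besides the Gadd45 genes and Plk2 were spread over signaling and the cell surface. Vgll3, a cofactor of the TEAD factors of the Hippo pathway, stood at 118 and 85 FPKM with MetR and 4.07 and 4.2 with siHoxc8 (-4.30 ± 0.15, adjusted p = 5.82e-06). TGF-β alone gave 95.2 and 88 FPKM, a range the MetR libraries overlapped and the siHoxc8 libraries lay far below. Sulf1, which trims sulfate from heparan sulfate, showed 88.6 and 125 FPKM with MetR against 5.75 and 7.25 with siHoxc8 (-3.83 ± 0.17). App, the amyloid precursor protein, showed 287 and 314 FPKM against 27.8 and 26.8 (-3.41 ± 0.09). In the same way Edn1, the vasoconstrictor endothelin 1, was at 23.7 and 18.7 FPKM with MetR and 1.19 and 0.713 with siHoxc8 (-3.51 ± 0.17). Hrct1 stood at 40.3 and 23.9 and 0.412 and 0.514 (-4.45 ± 0.25). For Sulf1, App, Edn1 and Hrct1 the siHoxc8 libraries were the lowest of all 8. Avpr1a, a vasopressin receptor (-3.51 ± 0.22), Il19, a cytokine of the interleukin 10 family (-3.85 ± 0.19), and Ppef1, a protein phosphatase (-3.61 ± 0.27), complete the 12. Ppef1 stood at 18 and 29 FPKM with MetR and at 0.445 to 1.36 FPKM in the other 6 libraries.

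**Figure D2:**
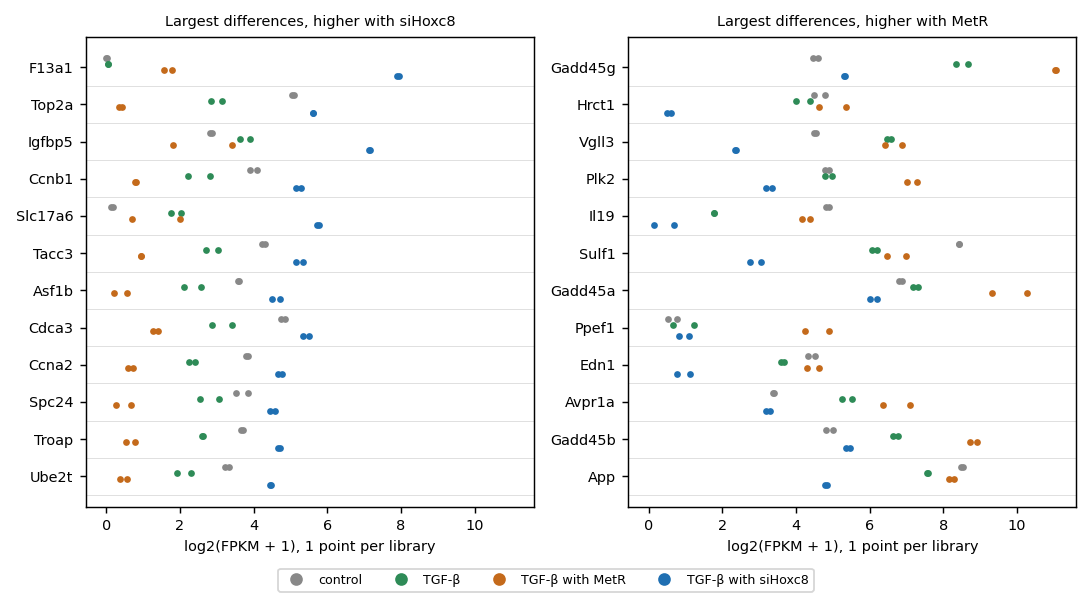
Levels of the 12 largest differences in each direction as log2(FPKM + 1) in each of the 8 libraries, with control in gray, TGF-β in green, TGF-β with MetR in orange and TGF-β with siHoxc8 in blue. For Top2a, Ccnb1, Tacc3, Asf1b, Cdca3, Ccna2, Spc24, Troap and Ube2t the order from low to high is MetR, TGF-β alone, control and siHoxc8, while Gadd45g, Gadd45a, Gadd45b, Plk2, Avpr1a and Ppef1 are highest with MetR.

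Cytosolic ribosomal protein genes were lower with MetR. Of 68 such genes, 65 were higher with siHoxc8 and 3 did not pass, with a median difference of 1.40. Rpl3, a protein of the large subunit, stood at 71.4 and 84.9 FPKM with MetR and 356 and 349 with siHoxc8 (2.17 ± 0.12, adjusted p = 1.91e-05). Rpl31 stood at 78.6 and 78.7 FPKM with MetR and 314 and 286 with siHoxc8 (1.92 ± 0.11, adjusted p = 1.91e-05). Rpl39 (2.05 ± 0.16) and Rps27 (1.91 ± 0.15) differed to a like extent. Relative to TGF-β alone the list's median was -1.24 with MetR and 0.13 with siHoxc8, so the siHoxc8 levels stood near those of TGF-β. These genes have many near-identical copies, so the split of reads among copies is uncertain. Nuclear-encoded subunits of the respiratory chain leaned the same way, with 29 of 63 higher with siHoxc8, 0 with MetR and a median of 0.34, and 51 of the 63 intervals lay within 2-fold. The count was 14 without siHoxc8 replicate 1 and 19 without siHoxc8 replicate 2, while 6 were higher with MetR after quantile normalization and 2 without either TGF-β library. Uqcr11 of complex III (1.21 ± 0.17), Cox7b of complex IV (1.12 ± 0.13) and the complex I subunits Ndufa5 (0.98 ± 0.16) and Ndufv2 (0.97 ± 0.11) led the list.

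Mat2a, which makes S-adenosylmethionine, stood at 293 and 402 FPKM with MetR and 70.8 and 73.4 with siHoxc8 (-2.23 ± 0.15, adjusted p = 3.43e-05). The siHoxc8 libraries lay beside the 69.8 and 74.6 FPKM of TGF-β alone and the 66.6 and 63.2 FPKM of control cells, and the MetR libraries stood above all others. Of 20 members of the methionine cycle and transsulfuration list 7 were higher with MetR and 6 with siHoxc8, shares near the 29.3% and 24.9% of all genes tested, and the median was 0.09 (-0.01 without MetR replicate 1 and with a mean of at least 5 FPKM, 0.05 without siHoxc8 replicate 1, and 0.14 without siHoxc8 replicate 2). Towards MetR stood Amd1, which commits S-adenosylmethionine to polyamines (-1.13 ± 0.10), and Mtr, which makes methionine from homocysteine (14.2 and 13.5 FPKM with MetR and 6.45 and 6.4 with siHoxc8, adjusted p = 0.000395), and towards siHoxc8 Mri1 of the methionine salvage pathway (1.38 ± 0.11).

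Genes of the ATF4 and amino acid response were more often higher with MetR. Of 23 members 12 were higher with MetR and 6 with siHoxc8, with a median of -0.55 (-0.33 without MetR replicate 2, -0.87 after quantile normalization), and relative to TGF-β alone the medians were 1.07 with MetR and 0.64 with siHoxc8. Ppp1r15a, which reverses the phosphorylation of eIF2α, stood at 136 and 271 FPKM with MetR and 32.5 and 32.5 with siHoxc8 (-2.53 ± 0.27, adjusted p = 0.000255). Trib3, an inhibitory pseudokinase, stood at 191 and 299.9 FPKM with MetR and 67 and 68.2 with siHoxc8 (-1.81 ± 0.19, adjusted p = 0.000206). For both genes the siHoxc8 libraries were within or next to the range of the control libraries (30.9 and 34.7 FPKM for Ppp1r15a and 65.8 and 65.6 for Trib3). Stc2, a secreted stanniocalcin (-2.10 ± 0.20), Ddit3, the stress factor CHOP (-1.28 ± 0.14), and Chac1, which breaks down glutathione (-1.27 ± 0.10), differed in the same direction. Atf4 itself stood at 542 and 738 FPKM with MetR and 433 and 430.1 with siHoxc8 (-0.55 ± 0.15, adjusted p = 0.0171 by limma). Its call was lost with the 4 libraries alone (adjusted p = 0.0566 by limma) and without either siHoxc8 library. Atf5, a factor related to ATF4, stood at 328 and 242 FPKM with MetR and 72.9 and 78.5 with siHoxc8 (-1.88 ± 0.14). The siHoxc8 libraries were the lowest of all 8 and the MetR libraries lay on both sides of the 310.2 and 308 FPKM of TGF-β alone. Asns, the asparagine synthetase that ATF4 induces, did not pass the test at 125 and 153 FPKM with MetR and 153 and 151 with siHoxc8 (0.13 ± 0.11, adjusted p = 0.332, 95% interval -0.12 to 0.39). It passed without MetR replicate 2 (adjusted p = 0.0166) and changed sign without MetR replicate 1, with adjusted p from 0.0166 to 0.91 under other settings. Towards siHoxc8 stood Aldh1l2, a mitochondrial folate enzyme (1.70 ± 0.28), and Psat1 of serine synthesis (0.62 ± 0.11). The CARE element of ATF4 was searched as TGATGNAA on both strands of the same 250 bases. It was present in 4 of 20 promoters of the list (20%), in 1.7% of all members and in 3.27% of all promoters. Amino acid transporters had it in 3 of 15 (20%) and cytosolic aminoacyl-tRNA synthetases in 4 of 11 (36.4%), and the remaining lists in at most 8.33%. The Trib3 promoter (chr3:161275534-161275783, minus strand, build GRCr8) is shown as the example with a match, in capitals, at -21 from the start.
Trib3: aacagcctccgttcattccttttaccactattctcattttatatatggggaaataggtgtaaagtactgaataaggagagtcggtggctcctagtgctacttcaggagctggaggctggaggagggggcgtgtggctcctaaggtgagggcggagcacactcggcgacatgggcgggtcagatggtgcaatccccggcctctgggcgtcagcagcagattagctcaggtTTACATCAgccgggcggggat

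Amino acid transporters and aminoacyl-tRNA synthetases, many of them ATF4 targets, were called about as often as all genes tested (24.9% and 29.3%) or less. Of 16 transporter genes 4 were higher with siHoxc8 and 5 with MetR, with a median of -0.05 (0.05 without MetR replicate 2, -0.13 without MetR replicate 1 and -0.01 without siHoxc8 replicate 1). Slc1a5, the glutamine carrier, stood at 30.7 and 48.2 FPKM with MetR and 109 and 119 with siHoxc8 (1.54 ± 0.19, adjusted p = 0.000419), and the siHoxc8 libraries were the highest of all 8. Slc43a2 (1.16 ± 0.15), a carrier of neutral amino acids, went the same way, and the glutamate carrier Slc1a3 (-1.25 ± 0.14) the opposite way. Of 18 cytosolic synthetase genes 4 were higher with siHoxc8 and 3 with MetR (median 0.21, 0.13 after quantile normalization), among them Qars1, which loads glutamine, towards siHoxc8 (0.99 ± 0.08) and Eprs, which loads glutamate and proline, towards MetR (-0.95 ± 0.11). The synthetase counts rested on the MetR libraries, with 4 and 5 without replicate 1 (median -0.03) and 12 and 2 without replicate 2 (median 0.43), 3 and 1 without siHoxc8 replicate 1, 4 and 1 without siHoxc8 replicate 2, and 7 and 3 after median ratio rescaling.

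Sterol and fatty acid synthesis genes were higher with siHoxc8 in 23 of 31 cases and higher with MetR in 1, with a median of 0.73. Tm7sf2, a sterol reductase, stood at 2.05 and 1.43 FPKM with MetR and 14.4 and 15.2 with siHoxc8 (2.53 ± 0.14, adjusted p = 1.78e-05). Scd, the fatty acid desaturase, stood at 11.5 and 8.04 FPKM with MetR and 43.9 and 45 with siHoxc8 (2.09 ± 0.16, adjusted p = 5.75e-05). TGF-β alone gave 41.9 and 48.2 FPKM of Tm7sf2 and 70.7 and 62.1 of Scd, above both treated groups. Idi1 (1.66 ± 0.13), Acat2 (1.55 ± 0.21) and Hmgcs1 (0.94 ± 0.15), early enzymes of the mevalonate and sterol pathway, were higher with siHoxc8 as well. Relative to TGF-β alone the medians of the list were -1.09 with MetR and -0.38 with siHoxc8. In the MetR group 29 of the 31 genes stood higher in replicate 1, and the median difference was 0.60 against replicate 1 alone and 0.82 against replicate 2 alone. The single call towards MetR was absent without MetR replicate 1, without either siHoxc8 library and with the 4 libraries alone, and 2 were called without MetR replicate 2.

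Among the components of the TGF-β pathway, of 16 genes of ligands, receptors and Smads 5 were higher with siHoxc8 and 6 with MetR, shares near the background of 24.9% and 29.3%, with a median of 0.07 (0.00 without MetR replicate 1, 0.01 without MetR replicate 2, and 3 and 5 called without siHoxc8 replicate 2). The ligand genes Tgfb1 (48.1 and 49.4 FPKM with MetR and 79.3 and 80.0 with siHoxc8, 0.70 ± 0.09, adjusted p = 0.000608) and Tgfb3 (1.19 ± 0.13) were higher with siHoxc8. Smad3, a Smad that the receptors activate, stood at 33.6 and 34.8 FPKM with MetR and 13.9 and 11.9 with siHoxc8 (-1.35 ± 0.11, adjusted p = 7.82e-05). TGF-β alone gave 20.3 and 18.2 FPKM, so the MetR libraries lay above and the siHoxc8 libraries below that level. Smad5, of the BMP branch (-0.99 ± 0.12), and Ltbp2, a matrix protein of the latent TGF-β binding family (-1.67 ± 0.16), were higher with MetR. For the receptor gene Tgfbr2 the groups stood at 35 and 26.2 FPKM with MetR and 33.6 and 36.5 with siHoxc8 (0.20 ± 0.19, adjusted p = 0.409, 95% interval -0.25 to 0.65).

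Early TGF-β targets were more often higher with MetR, in 11 of 23 cases, while 3 were higher with siHoxc8 and 9 did not pass, with a median of -0.27. Ccn2, the connective tissue growth factor, stood at 3391 and 3400.1 FPKM with MetR and 349 and 388 with siHoxc8 (-3.20 ± 0.11, adjusted p = 5.82e-06). The MetR libraries stood close to the 3058 and 3342 FPKM of TGF-β alone (MetR minus TGF-β 0.09 ± 0.11). The siHoxc8 libraries lay below the 947 and 926 FPKM of untreated control cells. Its relative Ccn1 showed 542 and 393 FPKM with MetR and 95.4 and 101 with siHoxc8 (-2.22 ± 0.18, adjusted p = 8.08e-05), against 85 and 112 in control. Bambi, a decoy receptor of the family, differed by -1.93 ± 0.14. Tgfbi, a matrix protein induced by TGF-β, ran against the list with 233 and 110.1 FPKM with MetR and 929.7 and 909 with siHoxc8 (2.51 ± 0.29, adjusted p = 0.000366), and the siHoxc8 libraries held the highest levels of all 8. Without MetR replicate 1, 5 rather than 3 of the list were higher with siHoxc8.

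Contractile genes had similar medians in both groups, -1.01 for MetR and -1.05 for siHoxc8 relative to TGF-β alone, whose libraries both values share, and -0.15 between the groups (-0.06 without MetR replicate 1, -0.23 after quantile normalization). Of 16 members 10 did not pass, 5 were higher with MetR and 1 with siHoxc8 (3 and 1 without siHoxc8 replicate 1, 3 and 2 without siHoxc8 replicate 2, and 5 and 2 without MetR replicate 1, without either TGF-β library, after median ratio rescaling and with limma-voom on recovered reads), and 12 intervals lay within 2-fold. The share of calls towards MetR was near the 29.3% of all genes tested, and 24.9% of those were called towards siHoxc8. Acta2, the smooth muscle actin of myofibroblasts, stood at 47.3 and 29.2 FPKM with MetR and 24.3 and 21.6 with siHoxc8, against 527 and 550.5 FPKM with TGF-β alone and 12.5 and 11.3 in control. The groups did not overlap (-0.67 ± 0.20, adjusted p = 0.0238), but the call was lost with no filter on low values, after quantile normalization, with the 4 libraries alone, and without siHoxc8 replicate 1 or 2 (adjusted p = 0.0568, 0.0732, 0.0862, 0.0612 and 0.116, with 0.00051 to 0.116 under all settings). Tagln, the actin-binding protein transgelin, stood at 5.22 and 2.46 FPKM with MetR and 3.74 and 3.34 with siHoxc8 and overlapped between the groups (-0.03 ± 0.26, adjusted p = 0.924, 95% interval -0.64 to 0.57). Its sign changed without MetR replicate 1, without siHoxc8 replicate 2 and after median ratio rescaling. Tpm2, a tropomyosin, was the exception towards siHoxc8 with 83.7 and 50.5 FPKM with MetR and 164 and 153 with siHoxc8 (1.27 ± 0.22, adjusted p = 0.00244). Srf (-0.58 ± 0.11) and its cofactor gene Mrtfa (-0.70 ± 0.13), which drive contractile genes, were higher with MetR.

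**Figure D3:**
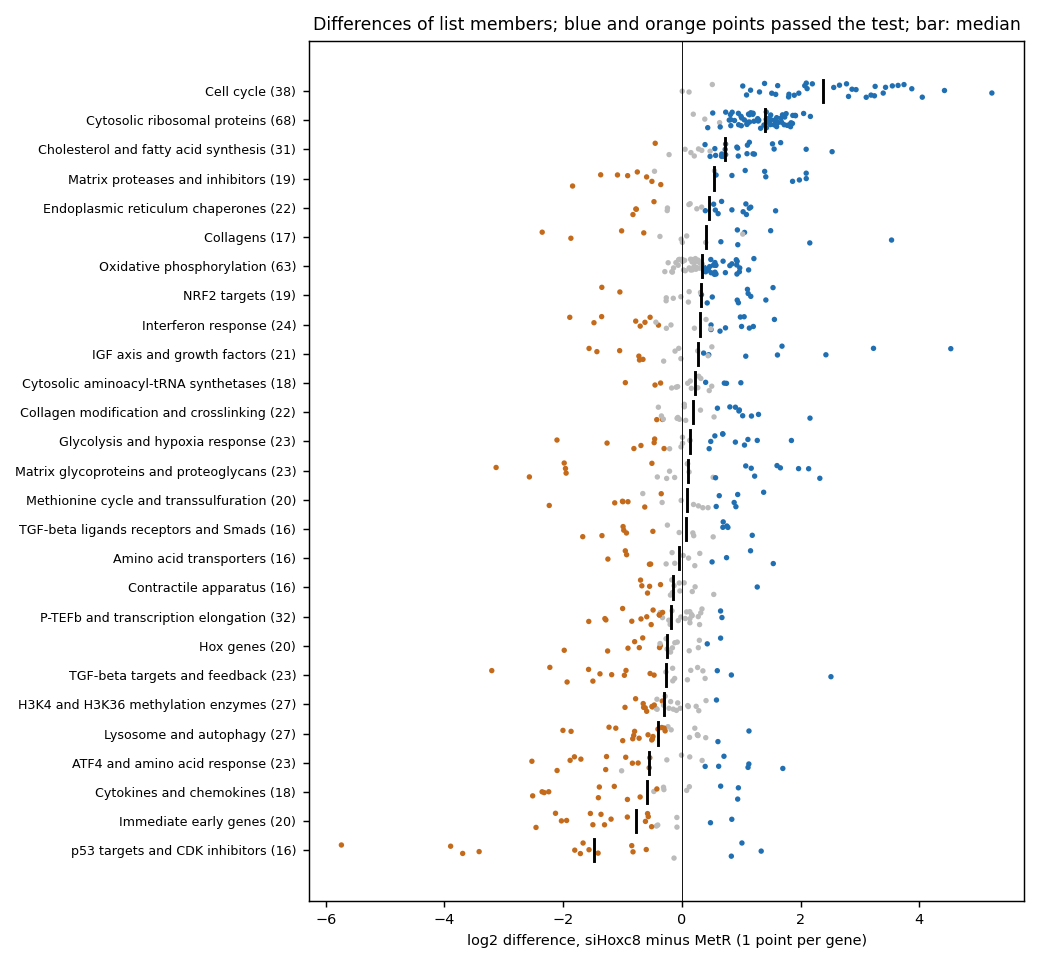
Log2 differences, siHoxc8 minus MetR, of the members of 27 gene lists (1 point per gene, the number of members in brackets), with the median as a black bar, genes higher with siHoxc8 in blue, genes higher with MetR in orange and genes that did not pass in gray. The cell cycle (median 2.38) and ribosomal protein lists (1.40) lie farthest to the right and p53 targets with CDK inhibitors (-1.49) farthest to the left.

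Collagen genes differed in both directions, and the size rested on which MetR library was used. Col3a1, the chain of type III collagen, stood at 506 and 105 FPKM with MetR and 2588 and 2785 with siHoxc8 (3.53 ± 0.59, adjusted p = 0.0019). The siHoxc8 libraries were well above all others, since TGF-β alone gave 367 and 374 FPKM, while the MetR libraries lay on either side of it. The difference was 4.66 without MetR replicate 1 and 2.41 without MetR replicate 2. Col1a1, of type I collagen, gave 4837 and 2788 FPKM with MetR and 4717 and 4992 with siHoxc8 and overlapped (0.40 ± 0.24, adjusted p = 0.19, 95% interval -0.15 to 0.96), but passed after quantile normalization (adjusted p = 0.0292) and with MetR replicate 1 left out (adjusted p = 0.00639), with 0.00639 to 0.984 under all settings. Of 17 collagen genes 7 were higher with siHoxc8 and 4 with MetR, against 24.9% and 29.3% of all genes tested. Their median was 0.40, and 16 of the 17 stood higher in MetR replicate 1 than in replicate 2. The median was 0.00 against MetR replicate 1 alone and 0.80 against replicate 2 alone, and with a mean of at least 5 FPKM 8 were higher with siHoxc8 and 1 with MetR (median 0.94). After quantile normalization the median was 0.17. Col8a1, of the network collagens, was higher with siHoxc8 (2.16 ± 0.34), and the fibrillar Col11a1 (-2.35 ± 0.48) and the fibril-associated Col14a1 (-1.87 ± 0.33) were higher with MetR. Without MetR replicate 1 the differences were 2.79 for Col8a1 and -1.46 for Col11a1, and without MetR replicate 2 they were 1.52 and -3.24.

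Of 22 genes that modify and crosslink collagen 9 were higher with siHoxc8 and 2 with MetR, with a median of 0.19 (0.40 without MetR replicate 1, 0.06 without MetR replicate 2 and with a mean of at least 5 FPKM, 0.29 with limma-voom on recovered reads). The lysyl oxidase genes Loxl1 (12.7 and 7.19 FPKM with MetR and 44.6 and 48.1 with siHoxc8, 2.16 ± 0.21, adjusted p = 0.00017) and Loxl4 (1.29 ± 0.21) and the prolyl hydroxylase family genes P3h3 (1.17 ± 0.19) and P3h4 (1.02 ± 0.22) led them. MetR replicate 1 exceeded replicate 2 for all 22. The counts were 9 and 5 without MetR replicate 2, 9 and 0 without siHoxc8 replicate 1, 8 and 1 without siHoxc8 replicate 2, and 9 and 1 without either control library, with the 4 libraries alone and after median ratio rescaling. Matrix glycoproteins and proteoglycans were higher with siHoxc8 in 9 and with MetR in 6 of 23 cases, with a median of 0.10 that was -0.33 against MetR replicate 1 alone (9 and 11 called) and 0.57 against replicate 2 alone, and -0.01 after quantile normalization. For comparison, 24.9% of all genes tested were higher with siHoxc8 and 29.3% with MetR. Fn1, fibronectin, stood at 3246 and 1737 FPKM with MetR and 2585 and 2581 with siHoxc8 (0.12 ± 0.29, adjusted p = 0.746, 95% interval -0.55 to 0.79), and its difference changed sign without MetR replicate 2. Nid1, a linker protein of basement membranes, stood at 83.6 and 73 FPKM with MetR and 8.02 and 8.05 with siHoxc8 (-3.13 ± 0.13, adjusted p = 9.74e-06), with the siHoxc8 libraries lowest of all 8. Fbln2, fibulin 2, was also higher with MetR (560.1 and 499.9 FPKM with MetR and 82 and 95.1 with siHoxc8, -2.57 ± 0.11, adjusted p = 1.17e-05), as was Thbs1, thrombospondin 1 (-1.96 ± 0.20). Its relative Thbs2 went the other way, at 18.7 and 3.79 FPKM with MetR and 40.8 and 42.6 with siHoxc8 (2.14 ± 0.54, adjusted p = 0.0119 by limma). The Thbs2 call was lost with the 4 libraries alone (adjusted p = 0.059 by limma) and without siHoxc8 replicate 2. Sparc, a collagen-binding glycoprotein, was higher with siHoxc8 at 772 and 212 FPKM with MetR and 2010.1 and 2057 with siHoxc8 (2.32 ± 0.49, adjusted p = 0.00556), with 3.25 without MetR replicate 1 and 1.40 without MetR replicate 2.

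Proteases of the matrix and their inhibitors differed widely in both directions, with 9 of 19 higher with siHoxc8, 8 higher with MetR and 2 that did not pass. Mmp3, stromelysin 1, stood at 14.3 and 29.7 FPKM with MetR and 93.5 and 89.9 with siHoxc8 (2.10 ± 0.28, adjusted p = 0.000674). Adam12, a membrane metalloprotease, stood at 42.6 and 27.4 FPKM with MetR and 152 and 147 with siHoxc8 (2.09 ± 0.27, adjusted p = 0.000572). Mmp10, stromelysin 2, was higher with siHoxc8 too (1.98 ± 0.38, with 1.35 without MetR replicate 1 and 2.61 without MetR replicate 2). All siHoxc8 values of these 3 genes exceeded every other library. Adamts5, an aggrecanase, was higher with MetR (11.2 and 5.84 FPKM with MetR and 1.54 and 1.56 with siHoxc8, -1.84 ± 0.25, adjusted p = 0.000667). The median of 0.55 turned to -0.20 without MetR replicate 2 and to -0.36 with a mean of at least 5 FPKM.

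**Figure D4:**
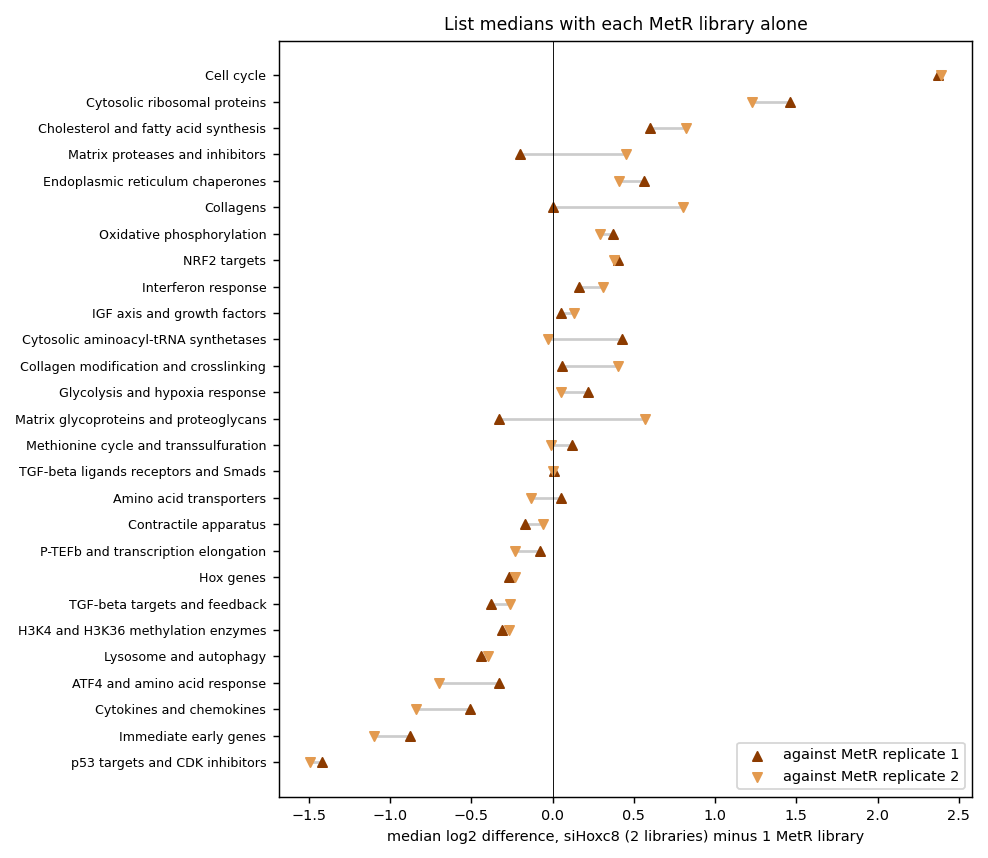
Median log2 difference of each of the 27 lists between the siHoxc8 libraries and MetR replicate 1 alone (dark upward triangles) or MetR replicate 2 alone (light downward triangles). Cell cycle genes hardly move, whereas collagens (0.00 and 0.80) and matrix glycoproteins (-0.33 and 0.57) depend on the library.

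Immediate early genes, which serum and stress induce at once, were higher with MetR in 14 of 20 cases and higher with siHoxc8 in 2, with a median of -0.77 (-1.30 with a mean of at least 5 FPKM). Klf4 stood at 64.5 and 85.6 FPKM with MetR and 11.5 and 14.1 with siHoxc8 (-2.46 ± 0.16, adjusted p = 3.32e-05). Egr1 stood at 39.5 and 52.7 FPKM with MetR and 8.57 and 10.9 with siHoxc8 (-2.13 ± 0.32, adjusted p = 0.00107). Both encode zinc finger factors, and for Egr1 the siHoxc8 libraries lay above the 2.8 and 3.1 FPKM of TGF-β alone while the MetR libraries were the highest of all 8. Klf2 (-2.03 ± 0.22), Ier2 (-1.94 ± 0.37, with -2.59 without MetR replicate 1 and -1.29 without MetR replicate 2) and Myc (-1.54 ± 0.22) differed in the same direction. Fos overlapped at 4.62 and 3.63 FPKM with MetR and 4.32 and 3.36 with siHoxc8 (-0.08 ± 0.17, adjusted p = 0.708, 95% interval -0.48 to 0.32), and its sign changed without MetR replicate 1 or siHoxc8 replicate 2. Zfp36, which destabilizes cytokine messages, was higher with siHoxc8 (0.84 ± 0.10). Only 1 gene was called towards siHoxc8 without MetR replicate 1 and without any 1 library of the other groups, and 3 were called without MetR replicate 2.

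Cytokines and chemokines were higher with MetR in 10 of 18 cases and with siHoxc8 in 3, with a median of -0.59 (9 and 0 without siHoxc8 replicate 2, and 11 and 1 with a mean of at least 5 FPKM, where the median was -1.03). Ccl2, which recruits monocytes, stood at 288 and 262 FPKM with MetR and 46.4 and 60.2 with siHoxc8 (-2.35 ± 0.14, adjusted p = 2.64e-05). The related Ccl7 stood at 75.7 and 50.6 FPKM with MetR and 11 and 13.7 with siHoxc8 (-2.24 ± 0.21, adjusted p = 0.000133). In both cases the siHoxc8 libraries were the lowest of all 8. Il1rl1, the receptor of interleukin 33, differed by -2.32 ± 0.23. Cxcl12 was higher with MetR as well (-2.51 ± 0.61, adjusted p = 0.0103), although its MetR libraries stood apart at 92.1 and 17.4 FPKM and the call was lost with the 4 libraries alone (adjusted p = 0.055, with 1.92e-05 to 0.055 under all settings), and the difference was -1.35 without MetR replicate 1 and -3.68 without MetR replicate 2. Genes that interferon and double-stranded RNA induce were measured because a transfected RNA can trigger them. With no control siRNA, a response to transfection was not tested. Of 24 such genes 10 were higher with siHoxc8 and 8 with MetR, against 24.9% and 29.3% of all genes tested. Their median was 0.31 (0.16 without MetR replicate 2). Relative to TGF-β alone the list's median was 0.30 with MetR and 0.18 with siHoxc8. Ifit2 (42.2 and 52.3 FPKM with MetR and 11.6 and 12.3 with siHoxc8, -1.89 ± 0.12, adjusted p = 3.14e-05), Gbp2 (-1.35 ± 0.11) and Irf9 (-1.48 ± 0.13) were higher with MetR, and Ifi35 (1.56 ± 0.19) with siHoxc8. Against TGF-β alone, the siHoxc8 libraries differed by 0.85 for Ifit2, 1.40 for Gbp2, -0.87 for Irf9 and 0.16 for Ifi35. The interferon counts were 7 and 5 with the 4 libraries alone, 9 and 5 with library weights, 7 and 4 without siHoxc8 replicate 1 and 6 and 5 without siHoxc8 replicate 2.

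Growth factor genes included some of the largest single differences. Of 21 members of the list 8 were higher with siHoxc8 and 6 with MetR, where all genes tested give 24.9% and 29.3%. The median was 0.27 (-0.03 with a mean of at least 5 FPKM, 0.13 without MetR replicate 1, 0.05 without MetR replicate 2 and 0.16 without siHoxc8 replicate 2). Besides Igfbp5, Angptl2, an angiopoietin-like protein, stood at 8.16 and 3.06 FPKM with MetR and 56.6 and 55.8 with siHoxc8 (3.23 ± 0.32, adjusted p = 0.000181, with 2.64 without MetR replicate 2). Pdgfra, the receptor α of platelet-derived growth factor, stood at 9.97 and 6.74 FPKM with MetR and 49.4 and 47.8 with siHoxc8 (2.43 ± 0.17, adjusted p = 4.35e-05), and its siHoxc8 libraries were the highest of all 8. Areg, a ligand of the epidermal growth factor receptor, was higher with siHoxc8 (1.69 ± 0.23), and Igfbp4 was higher with MetR (-1.56 ± 0.15).

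Hox genes were called higher with MetR more often than with siHoxc8. Of 20 Hox members 8 were higher with MetR, 2 with siHoxc8 and 10 did not pass, with a median of -0.26. All genes tested gave 29.3% towards MetR and 24.9% towards siHoxc8. Hoxb6 stood at 124 and 92.9 FPKM with MetR and 23.9 and 29.4 with siHoxc8 (-1.98 ± 0.16, adjusted p = 8.39e-05), with the MetR libraries above and the siHoxc8 libraries below the 37.5 and 34.6 FPKM of control. Hoxb4 (-1.25 ± 0.12), Hoxd10 (-0.91 ± 0.18) and Hoxd9 (-0.80 ± 0.11) followed, and Hoxb9 was higher with siHoxc8 (0.65 ± 0.11). Hoxc9, next to Hoxc8 in the cluster, did not pass the test at 4.12 and 3.87 FPKM with MetR and 3.61 and 2.83 with siHoxc8 (-0.25 ± 0.22, adjusted p = 0.367, 95% interval -0.77 to 0.27). The Hox counts were 5 and 1 with the 4 libraries alone, with library weights and without siHoxc8 replicate 1, 6 and 1 without siHoxc8 replicate 2, without either control library and after quantile normalization, 8 and 1 without MetR replicate 1, and 7 and 1 with no filter or with a mean of at least 5 FPKM. Cdk9, the kinase subunit of P-TEFb, which releases paused RNA polymerase II, stood at 153 and 206 FPKM with MetR and 70.8 and 72.7 with siHoxc8 (-1.30 ± 0.14, adjusted p = 0.000288). The siHoxc8 libraries lay just above the 59.9 and 68.2 FPKM of TGF-β alone and the MetR libraries above all others. Ccnt1, which encodes its partner cyclin T1, overlapped at 2.86 and 1.46 FPKM with MetR and 2.65 and 2.82 with siHoxc8 (0.28 ± 0.22, adjusted p = 0.329, 95% interval -0.25 to 0.80). It passed without MetR replicate 1 (adjusted p = 0.0264, with 0.0264 to 0.832 under all settings) and changed sign without MetR replicate 2. Of 32 genes of P-TEFb and elongation 12 were higher with MetR, 2 with siHoxc8 and 18 did not pass, against the same 29.3% and 24.9%. The median was -0.18 (-0.08 without MetR replicate 2, -0.11 after quantile normalization). Ell (-1.57 ± 0.12) and Eaf1 (-1.28 ± 0.17), an elongation factor and its partner, and Mllt1 (51.4 and 50.6 FPKM with MetR and 25.1 and 25 with siHoxc8, adjusted p = 0.00019) of the super elongation complex differed in that direction, and Supt16h, a histone chaperone subunit, was higher with siHoxc8 (0.68 ± 0.09). The elongation counts were 7 and 2 without siHoxc8 replicate 1, 11 and 6 without MetR replicate 2 and 11 and 4 after quantile normalization.

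**Figure D5:**
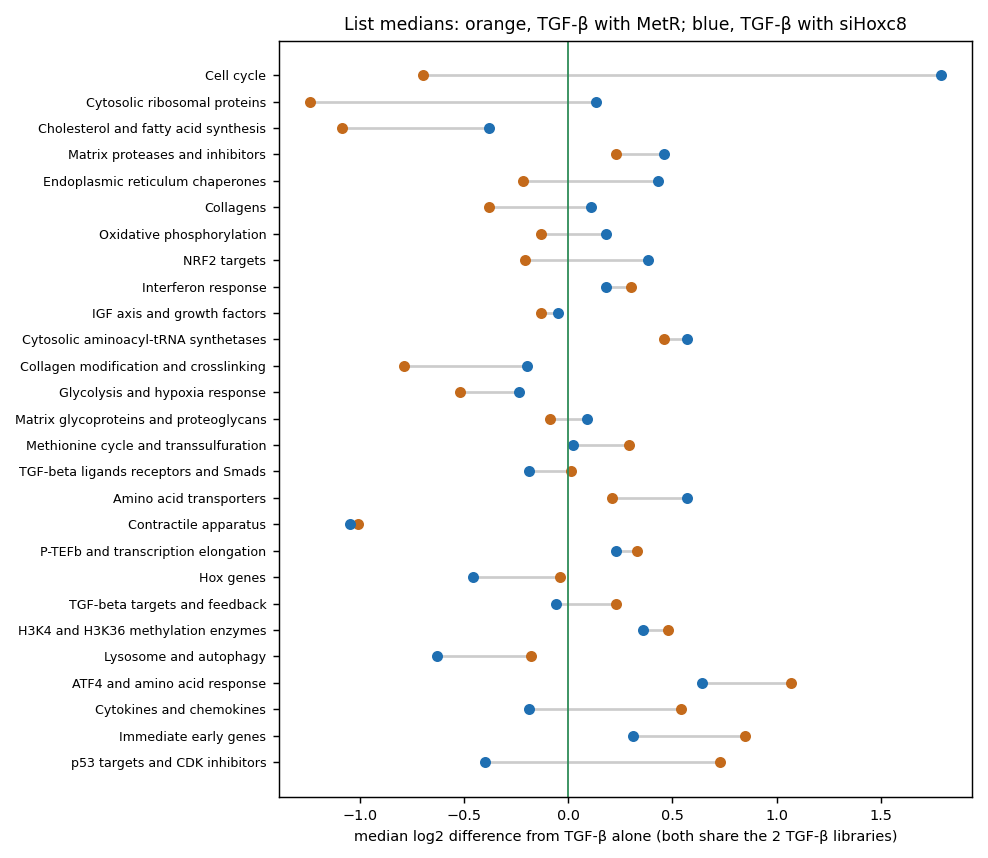
Median log2 difference from TGF-β alone (green line at 0) of each of the 27 lists with MetR (orange) and with siHoxc8 (blue), where both medians share the 2 TGF-β libraries. The treatments lie on opposite sides of TGF-β alone for the cell cycle list (-0.70 and 1.79) and side by side for the contractile list (-1.01 and -1.05).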

How the data were processed

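Polyadenylated RNA was sequenced in 8 libraries of 4 groups, and the 20 chromatin immunoprecipitation and input samples of the series were not used here. Levels were deposited as 1 table of FPKM values that the authors made. The submitters' processing notes name build rn6 and featureCounts, Trim Galore, deepTools and Bowtie2 2.3.5.1, with no roles, and neither annotation nor strand setting is given there. A value of 0 is called listed at 0, since all 13 mitochondrially encoded genes have it. Dividing each gene's values by 1 common step gave whole reads for 100.0% of 19435 genes above 0 (tolerance 0.02 reads).

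The limma package (3.58.1, under R 4.3.3) was fitted to log2(FPKM + 1) with 1 coefficient per group over all 8 libraries, no covariates and variances moderated with a trend (4 residual and 3.47 prior degrees of freedom). The fit covered the 12315 genes that reached 1 FPKM in 2 or more libraries, p-values were two-sided and adjusted over all of them by the Benjamini-Hochberg method, and calls were made at 0.05. The fit was tested on simulated data first. Members, lists and tests were chosen with earlier results of these data known, and list names were matched to the table by RefSeq synonyms where needed. Named genes are a fixed set, the 12 largest called differences in each direction (at least 5 FPKM in the higher group, no overlap, called also without either MetR library, no placeholder symbol), and up to 4 members of each list with 1 of the opposite direction. Other list members were named for their function after their values were seen, and some that the rule takes are not described. Alternatives covered the pseudocount, filters, scaling, library weights, recovered reads, the replicate number and leaving out each library.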

Additional observations from a re-analysis of the deposited data

How the results depend on the processing

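The 6601 members that differed and their split of 3032 and 3569 stayed within 1.5 times of these counts under the 17 alternatives run. Leaving out 1 library at a time gave 4579 to 7145 members, with 2154 to 3287 higher with siHoxc8 and 2425 to 4017 higher with MetR and the lowest counts without siHoxc8 replicate 1, where the remaining library is assumed to vary like the other groups. The number of members whose interval lay within 2-fold ran from 5766 (with a mean of at least 5 FPKM) to 7212 (after quantile normalization), against 7004. Of the comparisons of named genes with an alternative, 2645 stayed on their side of the threshold with no called value reversed, 45 lost the call and 4 gained it, the last being Asns without MetR replicate 2, Ccnt1 without MetR replicate 1 and Col1a1 without MetR replicate 1 and after quantile normalization. The list medians moved by more than a spread in 61 cases and by less in 398. That spread was the SD of 2 list medians, each siHoxc8 minus MetR within 1 replicate number. It ran from 0.00201 (lysosome and autophagy) to 0.636 (matrix glycoproteins). Since it rests on replicate numbers that do not pair these libraries, the split is a rough guide. The cell cycle list went from 2.38 to 3.18 with a pseudocount of 0.1 and 3.33 with limma-voom on recovered reads. The libraries share replicate numbers, but the differences between replicates 1 and 2 of the MetR and siHoxc8 groups correlated at 0.02 across 12315 genes, so the numbers do not pair them, although those of TGF-β alone and MetR correlated at 0.2, and a fit with the replicate block gave 6602 members. Low FPKM limits what can be seen for genes such as Hoxc8, at 3 to 23 reads in the 4 libraries.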

Other observations

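Of 22 chaperones of the endoplasmic reticulum 12 were higher with siHoxc8 and 4 with MetR, with a median of 0.47 (11 and 2 with the 4 libraries alone and without either siHoxc8 library). Hsp90b1, the chaperone GRP94, stood at 135 and 168 FPKM with MetR and 446 and 459 with siHoxc8 (1.58 ± 0.13, adjusted p = 8.38e-05), with Edem1 (1.16 ± 0.09), Xbp1 (1.14 ± 0.13) and Pdia4 (1.09 ± 0.11) in the same direction. Hspa5, the chaperone BiP, ran the opposite way at 596 and 994 FPKM with MetR and 432 and 437 with siHoxc8 (-0.82 ± 0.22, adjusted p = 0.0141), a call lost with the 4 libraries alone and without siHoxc8 replicate 1 or 2 (adjusted p = 0.0577, 0.0655 and 0.0596, with 0.000284 to 0.0655 under all settings). Antioxidant targets of NRF2 were higher with siHoxc8 in 10 and with MetR in 2 of 19 cases (median 0.33, 10 and 4 without MetR replicate 1, 10 and 5 after quantile normalization, 8 and 1 with the 4 libraries alone and without siHoxc8 replicate 2). Gsr, glutathione reductase, stood at 8.62 and 9.83 FPKM with MetR and 29.4 and 27.8 with siHoxc8 (1.54 ± 0.10, adjusted p = 3.57e-05) and Nqo1, a quinone reductase, at 133 and 68.8 FPKM with MetR and 264 and 251 with siHoxc8 (1.42 ± 0.26, adjusted p = 0.00308), while Ftl1, ferritin light chain, was higher with MetR (-1.35 ± 0.12).

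Lysosome and autophagy genes were lower with siHoxc8, with 17 of 27 higher with MetR, 2 higher with siHoxc8 and a median of -0.40 (15 and 4 without MetR replicate 1 and after quantile normalization, 14 and 5 after median ratio rescaling, 13 and 1 with the 4 libraries alone and without siHoxc8 replicate 1). Npc2, which carries cholesterol out of lysosomes, stood at 344 and 336 FPKM with MetR and 85.5 and 82.7 with siHoxc8 (adjusted p = 2.21e-05), and the protease gene Ctsa at 274 and 239 FPKM with MetR and 110.2 and 108 with siHoxc8 (-1.23 ± 0.10, adjusted p = 8.2e-05). Both siHoxc8 libraries of each gene were the lowest of all 8. Mitf, a factor that drives lysosomal genes in some cells, was higher with MetR (-1.87 ± 0.24). Of 23 glycolysis and hypoxia genes 10 were higher with siHoxc8 and 7 with MetR, where all genes tested give 24.9% and 29.3% (median 0.14, 0.05 without MetR replicate 1, 0.22 without MetR replicate 2, 0.04 with 8 and 8 called after quantile normalization, 9 and 4 with the 4 libraries alone, 7 and 4 without siHoxc8 replicate 1). Ldha, lactate dehydrogenase, stood at 169.9 and 189 FPKM with MetR and 445 and 422 with siHoxc8 (1.27 ± 0.11, adjusted p = 9.53e-05) and Pfkm, a phosphofructokinase, at 12 and 7.34 FPKM with MetR and 37.2 and 35.6 with siHoxc8 (1.85 ± 0.19, adjusted p = 0.000205), while Adm, adrenomedullin, was higher with MetR (-1.26 ± 0.15). Ca9 was higher with MetR too, at 153 and 39.3 FPKM against 17.6 and 17 with siHoxc8 (-2.10 ± 0.51, adjusted p = 0.00977 by limma). The Ca9 call was lost with the 4 libraries alone (adjusted p = 0.0533 by limma). Of 27 enzymes that write or erase methylation at lysines 4 and 36 of histone H3, 10 were higher with MetR, 1 with siHoxc8 and 16 did not pass, against the same 29.3% and 24.9% (median -0.31, and 4 and 0 without siHoxc8 replicate 1, 6 and 0 without siHoxc8 replicate 2, 10 and 2 without MetR replicate 2, 12 and 3 without either TGF-β library, 9 and 3 after median ratio rescaling, 8 and 2 after quantile normalization, 8 and 0 with the 4 libraries alone, 9 and 2 with no filter). Setd2, the writer of H3K36 trimethylation, stood at 26 and 27.1 FPKM with MetR and 14.3 and 15.8 with siHoxc8 (-0.78 ± 0.11, adjusted p = 0.000759), and the eraser gene Kdm4b at 8.14 and 7.18 FPKM with MetR and 3.29 and 3.62 with siHoxc8 (-0.96 ± 0.13, adjusted p = 0.00064).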
